A study of Mus musculus with 6 samples.

Results

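The genes described here are the mouse zinc finger protein genes whose symbol is Zfp followed by a number. The array carried 510 probes for 338 such genes. A probe was kept if the scanner software called it well above background on all 3 Model arrays or on all 3 Medicine arrays, which left 296 probes of 230 genes out of 20659 genes with a symbol on the array. Of the 108 genes that were not kept, 37 had a probe well above background on 2 of the 3 arrays of a group, 52 on 1 array of a group and 19 on no array. A value on all 6 arrays was available for 226 of the 230 genes, and a gene with several kept probes is represented by its brightest one. The members were thus chosen by their detection on the same arrays that are compared below, so the differences of these genes are given as a description and no test of them as a list was made.

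RNA from the spleens of male ICR mice, an outbred stock, aged 8 weeks was labelled with Cy3 and hybridized to 6 Agilent arrays. Every mouse of both groups had received cyclophosphamide, an alkylating drug that depletes lymphocytes, at 40 mg/kg by intraperitoneal injection for 5 days. The Model group (the study's MOD group, arrays 1, 2 and 3) received no further drug. The Medicine group (the study's SA-H group, arrays 4, 5 and 6) was then given Sch A, the lignan schisandrol A, at 1000 mg/kg/d by gavage according to the labels. The paper's account of its animal experiment gives this group another dose, in molar units, and a shorter course, and which of them the arrays followed is not settled. The labels place the Model arrays at day 5 and the Medicine arrays at day 28, whereas the protocol in the labels gives model mice distilled water over the same 4 weeks, so drug and day cannot be told apart where the day labels hold. No array of mice without cyclophosphamide was analysed here. It is not stated whether separate mice gave the 3 arrays of a group, and the errors below cover the spread between arrays, part of which may be technical.

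Most Zfp proteins bind DNA through tandem C2H2 zinc fingers, in which pairs of cysteines and histidines hold a zinc ion. Many carry an N-terminal KRAB domain that recruits Trim28, a scaffold for the histone H3 lysine 9 methyltransferase Setdb1, HP1 proteins and the NuRD complex, and they are best known for silencing transposable elements and for keeping imprints. Their genes lie in clusters that grew by local duplication, so that neighbours often resemble each other, and a probe can pick up transcripts of a near-identical neighbour. The deposited files hold no probe sequences, and cross-hybridization between such neighbours could not be examined. Other members have different tasks, such as the control of splicing, ribosome quality or the spindle.

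The promoters of some members resemble each other. RefSeq promoter windows on GRCm38.p6, which run from 250 bases before to 50 bases after the annotated start, were found for 189 of the 226 genes. The windows of Zfp758 (chr17:22361213-22361512, + strand) and Zfp943 (chr17:21962309-21962608, + strand) are shown because both genes lay lower on every Medicine array and their windows are the same over all 292 aligned bases, apart from 1 inserted base. Capitals mark the 248 bases that form their longest shared run.

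Zfp758: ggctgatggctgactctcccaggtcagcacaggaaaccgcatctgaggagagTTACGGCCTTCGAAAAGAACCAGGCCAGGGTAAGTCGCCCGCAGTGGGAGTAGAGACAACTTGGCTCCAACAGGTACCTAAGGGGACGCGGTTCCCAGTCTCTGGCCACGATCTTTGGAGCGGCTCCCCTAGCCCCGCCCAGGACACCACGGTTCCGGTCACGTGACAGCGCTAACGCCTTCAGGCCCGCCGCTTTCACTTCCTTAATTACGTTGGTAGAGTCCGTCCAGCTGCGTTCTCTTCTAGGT
Zfp943: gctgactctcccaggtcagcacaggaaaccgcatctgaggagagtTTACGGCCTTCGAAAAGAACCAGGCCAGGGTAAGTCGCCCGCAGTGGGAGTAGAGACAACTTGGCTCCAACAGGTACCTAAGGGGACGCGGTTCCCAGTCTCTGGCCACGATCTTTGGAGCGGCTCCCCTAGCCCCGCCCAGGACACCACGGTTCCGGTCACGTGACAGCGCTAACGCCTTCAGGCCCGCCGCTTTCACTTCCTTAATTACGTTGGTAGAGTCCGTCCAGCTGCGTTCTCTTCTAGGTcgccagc

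The windows of Zfp979 (chr4:147642459-147642758, - strand) and Zfp600 (chr4:146156577-146156876, + strand) are shown because Zfp979 had the largest difference of all 14474 genes and targets tested and Zfp600 has the window most like it. They are identical at 289 of 294 aligned bases (98.3%), and capitals mark their longest shared run of 93 bases.

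Zfp979: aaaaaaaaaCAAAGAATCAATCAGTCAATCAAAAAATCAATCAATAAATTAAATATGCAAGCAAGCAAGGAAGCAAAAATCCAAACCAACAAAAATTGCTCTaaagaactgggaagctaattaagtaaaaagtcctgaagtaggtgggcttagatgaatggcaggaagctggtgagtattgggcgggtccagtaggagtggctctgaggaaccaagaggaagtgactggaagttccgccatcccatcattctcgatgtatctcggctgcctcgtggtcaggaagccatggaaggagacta
Zfp600: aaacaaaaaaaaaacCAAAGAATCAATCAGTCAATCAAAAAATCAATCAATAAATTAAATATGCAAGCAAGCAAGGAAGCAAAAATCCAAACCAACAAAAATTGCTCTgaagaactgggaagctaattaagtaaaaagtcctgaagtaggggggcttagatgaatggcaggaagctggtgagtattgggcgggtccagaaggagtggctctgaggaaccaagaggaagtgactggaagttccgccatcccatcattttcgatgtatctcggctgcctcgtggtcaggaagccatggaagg

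All levels below are log2 values of the processed signal relative to the 75th percentile of the same array, and a difference is the Medicine mean minus the Model mean on that log2 scale. Levels of different probes are not comparable with each other. The Zfp979 level was 0.76, 0.64 and 0.05 on Model 1, 2 and 3 and -4.58, -6.78 and -5.24 on Medicine 4, 5 and 6. The probe was well above background on all Model arrays and on no Medicine array, and the groups lay far apart. Its measured difference was -6.02 with an SE of 0.55 (n = 3 per group). Since the Medicine level is not well above background, it only supports a bound, and Zfp979 was at least 19.6-fold lower in the Medicine group. With normexp background correction, which adds a constant to the signal, the difference was -3.12.

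Zfp758 had levels of 0.51, 0.27 and 0.19 on the Model arrays and -1.32, -1.29 and -2.12 on the Medicine arrays. Its neighbour Zfp943 had levels of 2.15, 1.74 and 2.47 on the Model arrays and 1.02, 1.03 and 1.17 on the Medicine arrays. For both genes every Medicine array lay below every Model array, and all 6 arrays were well above background. The difference was -1.90 (SE 0.30) for Zfp758 and -1.05 (SE 0.26) for Zfp943.

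Of the other 4 members of the chromosome 4 set, Zfp984 also lay lower on every Medicine array, by a smaller amount, and 3 had overlapping groups. Zfp600 had levels of -2.57, -2.06 and -3.54 on the Model arrays and -3.39, -3.33 and -3.88 on the Medicine arrays, where 1 of 3 was well above background. The ranges overlapped and the difference was -0.81 (SE 0.41). Zfp984 had levels of 2.32, 2.18 and 2.85 on the Model arrays and 1.03, 1.47 and 1.65 on the Medicine arrays, a difference of -1.07 (SE 0.29) with no overlap. Zfp985 differed by 0.09 (SE 0.52). Zfp981 stood at 0.49 and 1.02 on Model 1 and 2 but at -1.78 on Model 3, and at 0.89 on Medicine 5 but at -1.91 and -1.78 on Medicine 4 and 6. Its arrays thus took a high and a low level within each group. The 5 windows of this set are 81.2% to 98.3% identical in the pairs that reached the limit of 80%.

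**Figure D1:**
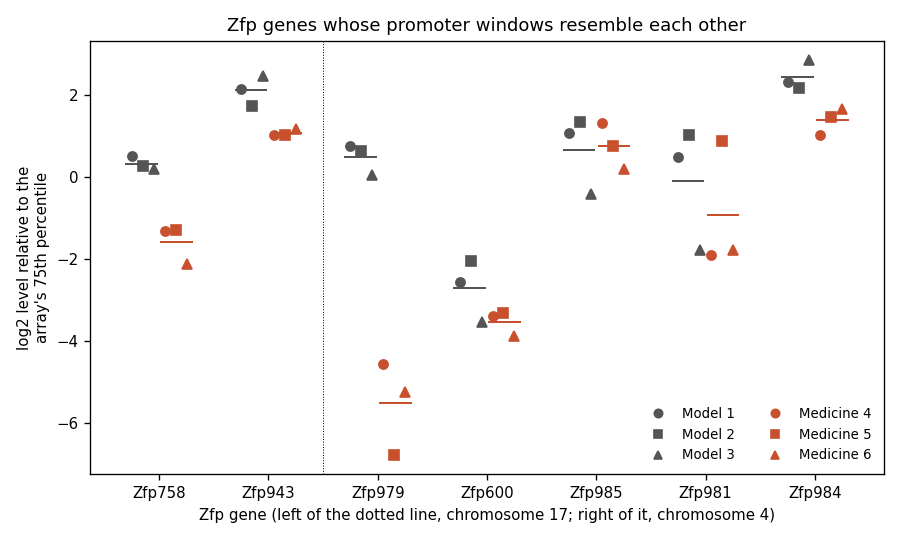
Levels of 7 Zfp genes with like promoter windows on each array (vertical axis, log2 relative to the 75th percentile of the array, comparable within a gene only). Points are single arrays and lines are the means of 3 arrays. Zfp758, Zfp943, Zfp979 and Zfp984 have all Medicine points below all Model points, whereas those of Zfp600, Zfp985 and Zfp981 overlap.

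In all, 8 sets of 2 to 5 members, with 22 genes between them, had windows that were at least 80% identical. The identical pair Zfp758 and Zfp943 and the chromosome 4 set held 4 called genes, all lower, and none of the other 6 sets held any, so that 4 of these 22 genes were called where 12.8% of all features were called in either direction. The chromosome 7 pair Zfp764 and Zfp747, 90.4% identical, had differences of 0.29 to 0.37. The pair Zfp975 and Zfp976, 90.8% identical, had differences of 0.29 and -1.01. Members with like promoters thus lay apart in some sets and close together in others.

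Before the comparison of all members, 2 properties of the arrays need to be given. Medicine 4 stood apart from the other arrays. Its 75th percentile of signal was 220 against 433 to 868 on the others, its levels correlated with those of the other arrays at r = 0.838 to 0.928 over all features, and 192 of the 226 Zfp genes were well above background on it against 216 to 226 on each other array. The arrays were also scanned on 3 days. Model 1, Model 3 and Medicine 6 were scanned on the first, Model 2 and Medicine 4 on the second and Medicine 5 alone on the third. The authors' value table, which holds log2 values of unstated scaling with a median of 5.34 in each column, did not match the scanner files. A column's levels correlated best with those of its own array for 1 of 6 columns, with r = 0.826 to 0.905 for the own array. After each feature was centred, this held for 3 of 6 columns, with r = -0.277 to 0.462. Which of the sources carries the right sample labels could not be settled, and every Model and Medicine value here follows the labels of the scanner files. Of the 29 called Zfp genes described next, 19 had the same sign in the value table, where Zfp979 stood at 8.30, 7.68 and 2.35 in the Model columns and 2.33, 8.63 and 7.17 in the Medicine columns.

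A gene was called when its difference was at least 2-fold (1 on the log2 scale) with an unadjusted limma p under 0.05, the limits drawn in the study. Of 226 Zfp genes, 14 (6.19%) were called higher in Medicine, where the share over all 14474 features was 7.74%, and 15 (6.64%) were called lower, where that share was 5.03%. Both shares lie near the background. With Benjamini-Hochberg adjustment in limma, 0 features of any kind passed an adjusted p of 0.05, while 3377 (23.3%) had an unadjusted p under 0.05, among them 22 Zfp genes on the higher and 34 on the lower side. The groups did not overlap for 77 Zfp genes (34.1%), 26 of them higher and 51 lower in Medicine, against 32.7% of all features (11.9% higher and 20.7% lower). The median Zfp difference was -0.11 with quartiles of -0.56 and 0.27, the median of all features was -0.04 with quartiles of -0.46 and 0.46, and 126 Zfp genes (55.8%) lay within 0.5 of 0. As a family, then, the Zfp genes stood close to the rest of the array.

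The share of higher and lower calls depended on the scaling. Scaling each array by its median moved the median of all features from -0.04 to -0.36 and the share of higher calls among all calls from 60.6% to 31.6%, and 7 Zfp genes were then called higher and 44 lower. Calls over all features rose from 1849 to 3158. Relative to the median of all features, the Zfp median was -0.07 under both scalings. The differences named below are relative to the 75th percentile, and no called Zfp gene changed sign when the median was used.

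**Figure D2:**
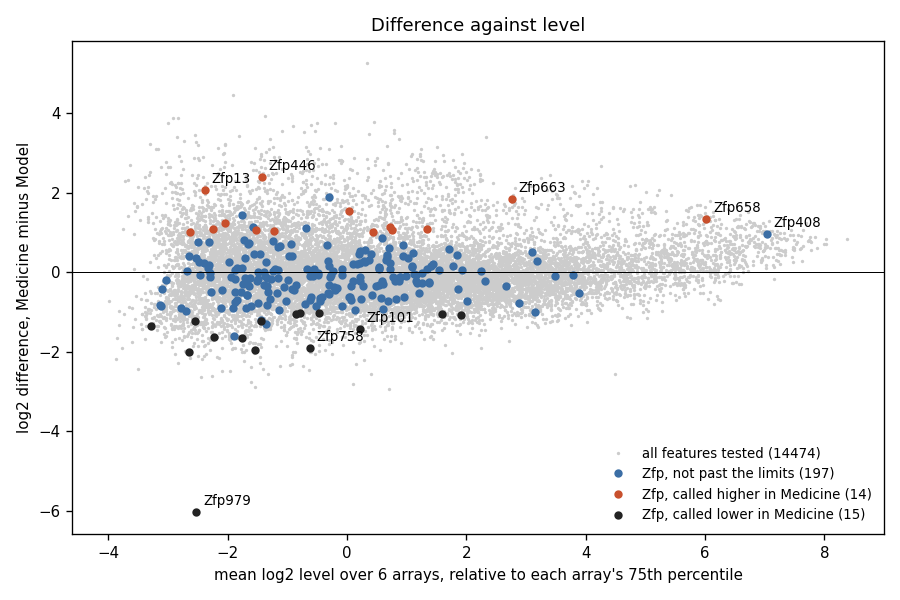
Log2 difference (Medicine minus Model) against the mean log2 level over 6 arrays, for all 14474 features tested (grey) and for the 226 Zfp genes (blue, orange for the 14 called higher and black for the 15 called lower). The Zfp genes spread around 0 like the other features, and Zfp979 lies alone at -6.02.

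Among the genes called lower in Medicine, Zfp101 had levels of 1.05, 0.79 and 0.93 on the Model arrays and -0.76, -0.54 and -0.19 on the Medicine arrays. Its difference of -1.42 (SE 0.25) rested on all 6 arrays, each well above background. Zfp800 stood at 0.30, -0.04 and -0.16 against -1.0, -1.06 and -0.88, a difference of -1.02 (SE 0.23), while its second, dimmer probe gave -0.38. Zfp410, a factor known for activating the NuRD gene Chd4, had levels of -0.40, -0.30 and -0.29 on the Model arrays and -2.18, -0.98 and -0.95 on the Medicine arrays. Its difference was -1.04 (SE 0.37), and -0.63 without Medicine 4. Chd4 itself had levels of 2.31, 2.71 and 2.71 against 3.06, 2.85 and 3.19, a difference of 0.46 with all Medicine arrays above all Model arrays, and it was not called. Zfp677 stood at -0.30, -0.40 and -0.11 on the Model arrays and at -1.98, -0.90 and -1.0 on the Medicine arrays.

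Other genes called lower were dimmer or rested on fewer arrays. Zfp473, the homologue of a U7 snRNP partner in histone mRNA processing, had levels of -2.65, -2.64 and -2.53 against -4.38, -3.97 and -3.52, a difference of -1.35 (SE 0.28), and was well above background on 1 Medicine array. Zfp871 stood at -1.65, -1.90 and -1.37 against -4.75, -3.04 and -3.14, a difference of -2.0 (SE 0.48), also with 1 Medicine array above background. Zfp317 stood at -0.61, -0.68 and -0.43 against -4.26, -1.58 and -1.71, and its difference of -1.95 became -1.08 without Medicine 4. Zfp512 stood at -1.40, -1.44 and -1.39 against -4.54, -2.06 and -2.50, with a difference of -1.63 that became -0.88 without Medicine 4. Zfp87 and Zfp229 went from -1.23 and -1.22 to -0.64 and -0.73 in the same way. Zfp963 differed from these, since its low levels were -3.10 and -3.69 on Medicine 5 and 6, while Medicine 4 at -0.95 lay within the Model range of -1.17 to -0.82.

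Among the genes called higher in Medicine, Zfp13 had levels of -3.60, -3.45 and -3.22 on the Model arrays and -0.82, -1.93 and -1.30 on the Medicine arrays. Its difference was 2.07 (SE 0.33), and it was well above background on 2 of 3 Model arrays. Zfp663 stood at 1.86, 1.60 and 2.07 against 4.75, 2.45 and 3.84, a difference of 1.84 (SE 0.55) in which Medicine 4 was highest. Zfp658, one of the strongest Zfp signals on the array, stood at 4.69, 5.77 and 5.58 against 7.72, 6.12 and 6.24, a difference of 1.35 (SE 0.50) that was 0.83 without Medicine 4. Zfp687, a partner of Zfp592 and Zfp532 in a complex with the chromatin reader Zmynd8, stood at 1.27, 0.54 and 0.59 against 2.16, 1.55 and 1.96, a difference of 1.09 (SE 0.30). Its partner Zfp592 differed by -0.01 (SE 0.27) by its brighter probe and by -1.03 by a dimmer one that was well above background on 2 of 3 Medicine arrays, and Zfp532 was not kept.

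The other 10 genes called higher ranged from 1.0 to 2.40. Zfp426 stood at -0.10, -0.37 and 0.27 against 1.25, 0.73 and 0.88, a difference of 1.01 (SE 0.27), but its second, dimmer probe gave 0.09. Zfp606 differed by 1.04 (SE 0.26), Zfp930 by 1.07 (SE 0.26) and Zfp768 by 1.07 (SE 0.37). Zfp358 differed by 1.13 (SE 0.38), and by 0.75 without Medicine 4. Zfp945, Zfp345 and Zfp142 differed by 1.09, 1.23 and 1.00 and were well above background on 2 of 3 Model arrays, as was Zfp446. The groups overlapped for Zfp446, whose levels of -3.83, -1.10 and -2.94 against 1.49, -0.17 and -1.99 gave the largest positive difference of the family, 2.40 with an SE of 0.98. Without Medicine 4 it was 1.55. They also overlapped for Zfp691, with a difference of 1.55 (SE 0.63) that was 0.87 without Medicine 4.

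**Figure D3:**
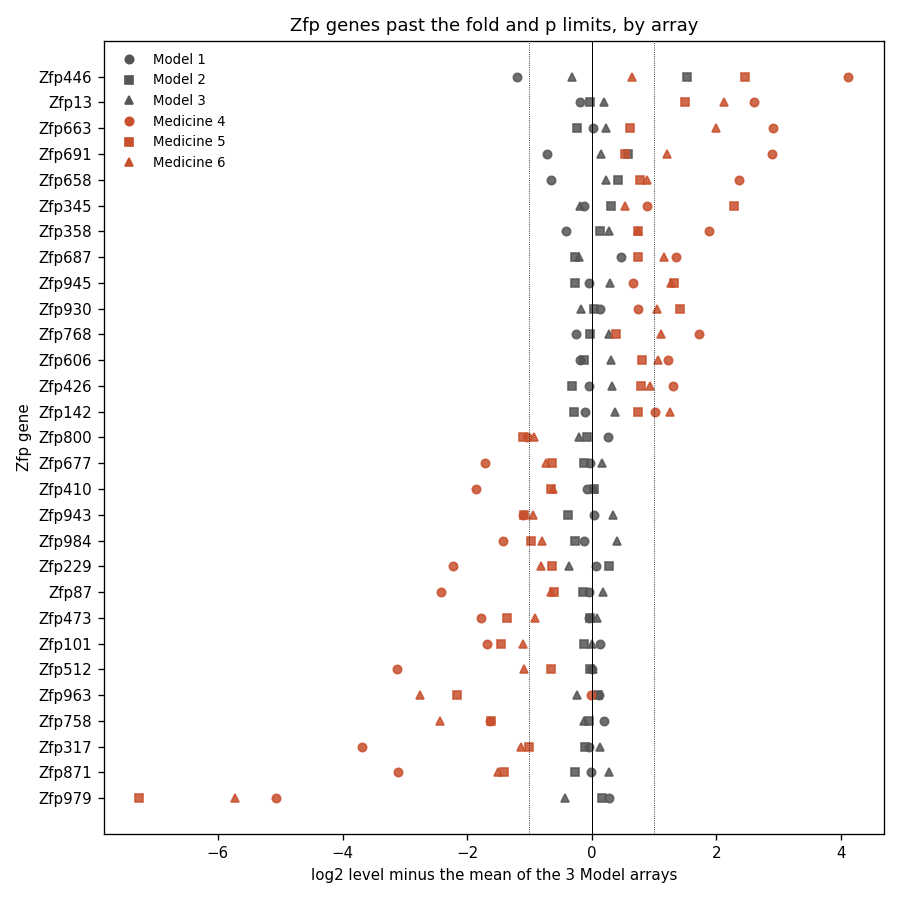
Levels of the 29 called Zfp genes on each array, as the log2 level minus the mean of the 3 Model arrays (horizontal axis), one gene per row in the order of the difference. Dotted lines mark a 2-fold difference. The Medicine 4 points are the outermost for 11 of the 15 genes called lower and for 10 of the 14 called higher.

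How far the calls rested on single arrays was counted. Medicine 4 was the lowest array for 11 of the 15 genes called lower and the highest for 10 of the 14 called higher, and it was the array farthest from the mean for 96 of the 226 Zfp genes (42.5%). Without Medicine 4, 6 Zfp genes were called higher and 13 lower, of which 5 and 9 were among the genes called with all arrays. Without Model 1, 5 were called higher and 8 lower, and without Model 3, 8 and 9. Calls over all features fell as well, from 1849 to 1228 without Medicine 4, 1256 without Model 1 and 1541 without Model 3. In 7 genes the call stood whichever single array was left out. These were Zfp101, Zfp473, Zfp758, Zfp871 and Zfp979, which lay lower, and Zfp13 and Zfp663, which lay higher. Of these, Zfp473, Zfp871 and Zfp979 had been kept through the Model arrays alone and Zfp13 through the Medicine arrays alone, so that the filter itself favoured their direction and part of their levels was not above background. For Zfp101, Zfp758 and Zfp663 each of the 6 arrays was well above background. The part of the Medicine 4 array's state in the other calls was not tested. Background correction mattered most for dim genes called lower. With normexp, Zfp473, Zfp229, Zfp512 and Zfp871 had differences of -0.28, -0.31, -0.64 and -0.82, while Zfp101, Zfp758 and Zfp984 had -1.31, -1.42 and -1.07. In all, 8 Zfp genes were then called higher and 4 lower, and calls over all features fell to 1246.

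The scan days gave a comparison on separate arrays. These arrays also entered the fit that called the genes, so the choice of called genes favoured agreement in sign between the days. The median Zfp difference was -0.11 between Medicine 6 and Model 1 and 3, and -0.11 between Medicine 4 and Model 2. Zfp979 differed by -5.65 on the first day and -5.22 on the second, Zfp758 by -2.47 and -1.59, Zfp101 by -1.18 and -1.55, and Zfp13 by 2.11 and 2.63. Zfp317 differed by -1.20 and -3.59 and Zfp963 by -2.69 and -0.11, so that their size differed between these sets of arrays. Each day holds 1 Medicine array, so day and array cannot be told apart, and these values have no replicate error. On the first day Model 1 and 3 shared a slide scan and Medicine 6 was on another, so slide and group cannot be told apart there. Model 2 and Medicine 4 shared a slide scan.

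**Figure D4:**
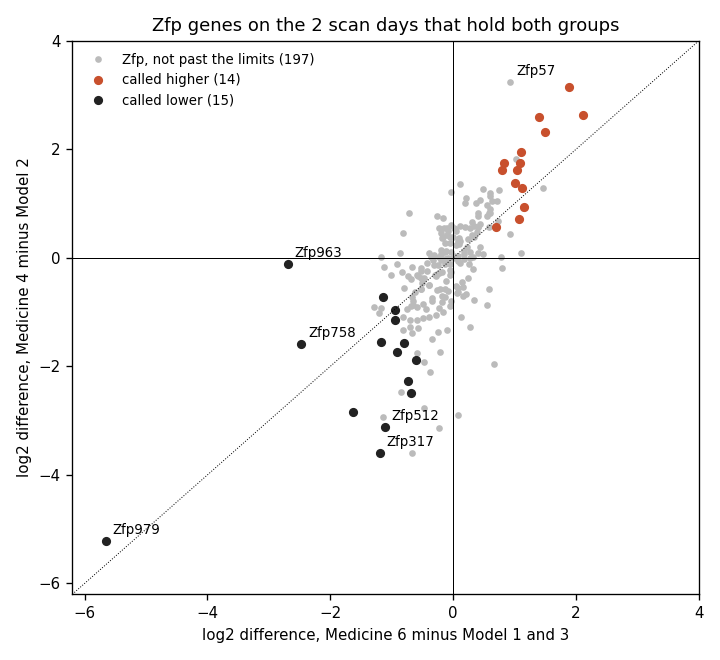
Log2 difference of each of the 226 Zfp genes on the second scan day (vertical axis, Medicine 4 minus Model 2) against that on the first (horizontal axis, Medicine 6 minus the mean of Model 1 and 3). The dotted line marks equal differences. All called genes have the same sign on both days, and Zfp963 lies near 0 on the second. These arrays also entered the calls, so the choice of genes favoured this agreement in sign.

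Detection shaped the members. On all 6 arrays 181 of the 226 genes were well above background, 35 were kept through the Model arrays alone and 10 through the Medicine arrays alone. The rule favours genes that are dimmer in the other group among these, so their medians of -0.83 and 0.88 are no result. Of the 35 genes, 34 were not well above background on Medicine 4. In the 181 genes detected on all arrays, 9 were called higher (4.97%) and 7 lower (3.87%) and the median difference was -0.06. Of the 12142 features detected on all arrays, 6.57% were called higher and 3.43% lower, with a median of -0.02. Just outside the rule, with 2 of 3 arrays of each group well above background, were for example Zfp335, at -2.80, -2.32 and -2.16 against -2.44, -1.99 and -2.09, and Zfp939, at -2.88, -2.93 and -2.31 against -3.36, -2.09 and -2.0. Just inside it, Zfp850, with all 3 Model arrays and 1 Medicine array well above background, stood at -2.08, -2.27 and -2.25 against -4.38, -2.63 and -2.55, and Zfp142 at -3.23, -3.40 and -2.75 against -2.11, -2.38 and -1.87. In bulk tissue, fewer cells of a type and less RNA per cell cannot be told apart.

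The members nearest the fold limit show how narrow the calls are. Zfp142 (1.00) and Zfp426 (1.01) lay just inside on the higher side, and Zfp408 (0.97, SE 0.49) and Zfp266 (0.85, SE 0.41) just outside. On the lower side Zfp800 (-1.02) and Zfp976 (-1.01) had reached the fold, Zfp976 without passing the p limit, and Zfp850 (-0.98) and Zfp433 (-0.96) had not. Zfp408, a gene linked to inherited retinal disease in people, gave one of the strongest signals, at 6.28, 6.73 and 6.64 against 8.54, 6.53 and 7.48. The other strong members had differences of -0.52 (SE 0.43) for Zfp791, which was -0.96 without Medicine 4, -0.06 (SE 0.29) for Zfp622 and -0.10 (SE 0.28) for Zfp330. Zfp715 (-0.95) and Zfp84 (-0.92) lay lower on every Medicine array without reaching the fold, and Zfp267 (0.72) lay higher on every one.

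Zfp genes with an established role were followed as a list of 39 genes, of which 30 were tested, 8 were not kept and 1 had no probe. Of the 30, 1 was called higher (Zfp687) and 0 lower, while 1 had an unadjusted p under 0.05 on the higher and 8 on the lower side, where 10.8% and 12.5% of all features had one, and the median difference was -0.32. Among the regulators of transcription and the spindle, Zfp207, which loads the checkpoint protein Bub3 onto kinetochores, stood at 3.46, 3.13 and 3.23 against 2.24, 2.61 and 2.66. Its difference was -0.77 (SE 0.24), but a second, dimmer probe gave 0.11. Zfp143, an activator that binds many housekeeping promoters, differed by -0.70 (SE 0.26) with no overlap. Zfp830, known for its need in early embryos and blood stem cells, stood at 0.66, 0.53 and 0.53 against -0.11, -0.14 and -0.03, with an SD of 0.08 and 0.06 and a difference of -0.67 (SE 0.21). Zfp644, a partner of the H3K9 methyltransferases Ehmt1 and Ehmt2, differed by -0.63 (SE 0.25), and Zfp217, which works with the Lsd1 and CoREST complex, by -0.25 (SE 0.23). The G-rich DNA binders Zfp148 and Zfp281 differed by 0.16 (SE 0.22) and -0.22 (SE 0.25).

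Members that act on RNA, ribosomes and SUMO differed by less than 1. Zfp598, the ubiquitin ligase that senses collided ribosomes, stood at 1.98, 2.06 and 2.18 against 1.56, 1.68 and 1.70, a difference of -0.43 (SE 0.21). Zfp622, a maturation factor of the large ribosomal subunit, differed by -0.06, Zfp346, a binder of double-stranded RNA, by -0.70 (SE 0.31), and Zfp326, which couples splicing to transcription, by -0.31 (SE 0.31). The SUMO ligase Zfp451 differed by -0.33 (SE 0.22). Zfp638, which silences unintegrated retroviral DNA, stood at 2.01, 1.94 and 1.75 against 1.97, 1.99 and 1.89, a difference of 0.05 (SE 0.22). Zfp809, which silences murine leukaemia viruses through Trim28, differed by -0.11 (SE 0.30).

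In lymphoid cells Zfp318 controls the splicing choice that lets mature B cells make IgD. Its brightest probe stood at 0.25, 0.27 and 0.80 against -0.46, 0.35 and 0.39, and the difference was -0.35 (SE 0.32) and -0.07 without Medicine 4. Zfp521, a regulator of blood progenitors, differed by 0.03 (SE 0.36). Zfp57, which keeps DNA methylation at imprinted regions, was dim in the Model group, at -2.42, -2.78 and -2.23, and stood at 0.46, -2.16 and -1.40 in the Medicine group. Its difference of 1.44 (SE 0.63) was not called and was 0.69 without Medicine 4. Zfp507 and Zfp668 lay lower on every Medicine array, with differences of -0.84 and -0.80, and the remaining 9 genes of the list lay between -0.72 (Zfp277) and 0.17 (Zfp24).

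The partners of the KRAB domain were counted over a list of 34 genes, 31 of them tested. Of these, 0 were called higher and 3 lower, against 7.74% and 5.03% of all features, and the median difference was -0.38. Trim28 stood at 0.81, 0.46 and 0.93 on the Model arrays and -0.64, 0.57 and 0.26 on the Medicine arrays, a difference of -0.67 (SE 0.36) with overlap, and -0.32 without Medicine 4. Setdb1 differed by 0.66 (SE 0.33), with 1.27 on the first scan day and -0.05 on the second. Hells, a remodeller needed for DNA methylation, stood at 0.18, 0.06 and -0.35 against -1.92, -1.14 and -1.49, a difference of -1.48 (SE 0.29, limma adjusted p = 0.0809 over all features). Morc3, a chromatin ATPase, had a difference of -1.41 (SE 0.40) that was -0.95 without Medicine 4, and Trim33, a histone-reading ubiquitin ligase, one of -1.04 (SE 0.35) that was -0.69. Atf7ip, which stabilises Setdb1, stood at 1.31, 0.96 and 1.23 against -0.05, 0.22 and 0.48, a difference of -0.95 (SE 0.25), just short of the fold limit. Cbx3, the HP1 gamma protein, had a difference of -0.91 (SE 0.29).

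Related zinc finger families were counted in the same way. Of 26 Zbtb genes, 2 were called higher and 1 lower with a median of -0.03. Of 12 Zscan and Zkscan genes, 0 were called and the median was -0.14. Of 20 Zfp genes with letters after the number, 1 was called in each direction with a median of -0.01, and of 14 Zc3h genes, which bind RNA through CCCH fingers, 1 was called in each direction with a median of 0.16. Differences between these families and the Zfp genes were not tested.

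By position, 79 of the tested genes lay in 10 runs of Zfp neighbours, defined as at least 5 tested genes with at most 10 protein-coding genes between neighbours on GRCm38.p6. Chromosome 17 held 6 of the 15 genes called lower among 29 tested genes, while 5.09% of all features on that chromosome were called lower. Of these 6, Zfp871 and Zfp229 had been kept through the Model arrays alone, so the filter favoured a lower value for them. Their differences were -0.82 and -0.31 with normexp. Chromosome 17 was named after the calls were seen, and its share was not tested. In the run from Zfp160 to Zfp13, 4 of 17 genes were called lower (Zfp758, Zfp229, Zfp943 and Zfp677) and 2 higher (Zfp945 and Zfp13), around a median of -0.11. In the run from Zfp871 to Zfp414, Zfp871 and Zfp101 were called lower and the median of 6 genes was -0.70, and -0.22 without Medicine 4. The chromosome 4 run from Zfp990 to Zfp933 had a median of -0.81 over 7 genes, and -0.36 without Medicine 4. On chromosome 7, the 5 genes from Zfp628 to Zfp580 all had differences above 0, between 0.09 and 0.63, but their median of 0.52 was 0.18 without Medicine 4. Genes called lower and higher thus stood side by side in the largest run. The 2 called higher, Zfp945 and Zfp13, had been kept through the Medicine arrays alone, and Zfp229 through the Model arrays alone. The filter itself favoured the direction of these genes.

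**Figure D5:**
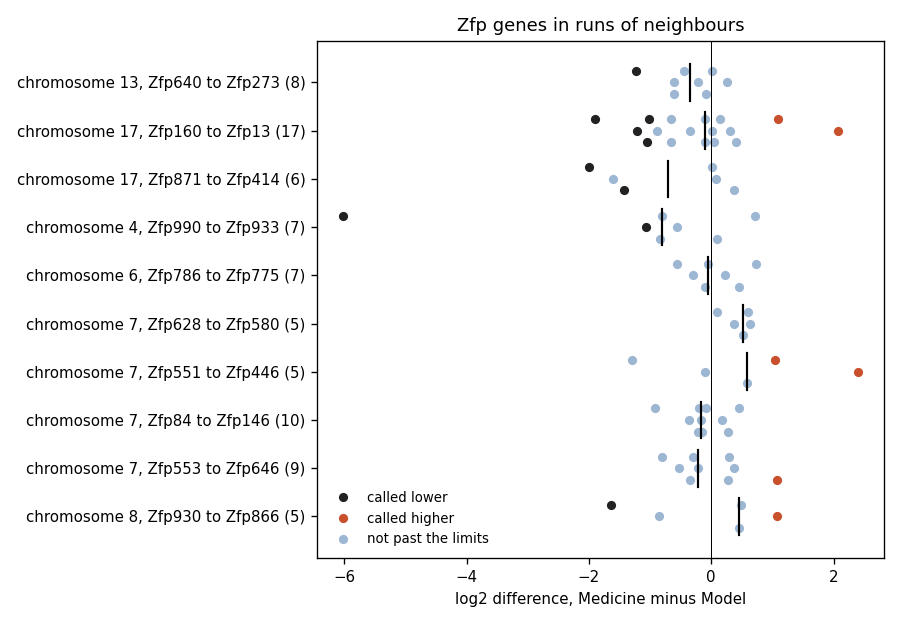
Log2 difference (horizontal axis) of each tested Zfp gene in the 10 runs of neighbours (rows, with the number tested in brackets). Points are genes, coloured by their call, and bars are medians of a run. The runs of chromosome 4 and of Zfp871 to Zfp414 on chromosome 17 have the lowest medians, -0.81 and -0.70, which are -0.36 and -0.22 without Medicine 4, when the run of Zfp553 to Zfp646 has -0.37.

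Several probes measured the same gene in 52 cases, and the probes of 20 genes differed in sign. The median gap between the highest and lowest difference of a gene was 0.60, and it was at least 1 in 12 genes. Zfp976 had a probe at 3.54, 3.74 and 3.72 against 1.27, 3.91 and 2.77 and a dimmer one at -0.96, -1.37 and -0.92 against 0.82, -0.84 and -0.26, so that its differences were -1.01 and 0.99. Zfp944 had differences of 0.02, 0.16, -1.73 and -1.27 over 4 probes, and Zfp266 of 0.85 and -0.73. The Zfp944 probes at -1.73 and -1.27 had been kept through the Model arrays alone. Zfp457 and Zfp867 were other genes whose probes differed in sign. Zfp937 stood for -0.45 by its brightest probe, while its other 2 probes gave -2.08 and -2.23 with no overlap between groups. Those 2 probes were well above background on all 3 Model arrays but on only 2 and 1 of the 3 Medicine arrays. The filter thus favoured a lower value for them. All 4 probes of Zfp975 gave differences above 0, from 0.29 to 0.82. Of the called pairs with like promoters, Zfp984 had a second probe at 1.86, 1.34 and 1.77 against 1.21, 1.13 and 1.55, a difference of -0.36. What set such probes apart was not tested.

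The promoter letters were compared with those of all 27025 windows in the same table. These were taken whether or not the gene was detected on the arrays, whereas the Zfp windows belong to genes kept by the detection rule. The part of this unlike choice in the contrasts below was not tested. The windows of the Zfp genes had a median GC content of 54.3% against 52.7%, and a median ratio of observed to expected CpG of 0.64 against 0.39. Both strands were searched for each motif and overlaps between motifs were ignored. The GC box GGGCGG was found in 53.4% of the Zfp windows and 35.9% of all, the CCAAT box CCAAT in 51.3% and 37.9%, the ETS motif CCGGAAG in 20.1% and 9.12%, the YY1 motif AAGATGG in 9.52% and 6.48%, and the TATA box TATAAA in 5.29% and 14.2%. Among the called genes with a window, the GC box was found in 11 of 13 that lay lower and 9 of 12 that lay higher. In the same order, the CCAAT box was found in 7 and 5, the ETS motif in 1 and 5, the YY1 motif in 1 and 1, and the TATA box in 1 and 0. The 13 windows include the like ones of Zfp758 and Zfp943 and of Zfp979 and Zfp984, which are not separate cases. Differences between the directions were not tested. A match is a description of letters and not a site in use.

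Markers of other cells were read on the same arrays, as summed signal relative to the 75th percentile. Detection on every array of a group was found for 8 of 10 B cell markers in both groups and for 10 of 10 T cell markers in the Model and 9 in the Medicine group, with sums of 106 to 139 against 115 to 140 and 17.8 to 33.4 against 17 to 23.1. None of 8 pancreas markers and 4 of 10 liver markers were kept, although the extraction protocol speaks of liver beside spleen. Fat markers, 6 of 7 tested, moved with the group, from sums of 9.45 to 13.8 in Model to 5.02 to 5.97 in Medicine. Division markers had a median difference of -0.96 over 10 genes, with sums of 145 to 152 against 84.1 to 195. The summed signal of erythroid and neutrophil markers peaked on Medicine 4, at 1480 and 848 against at most 869 and 384 on any other array. Most single genes of these lists went the other way between the groups. The median difference was -0.36 for the erythroid list, with 8 of 11 genes below 0, 3 called lower and 1 higher. For the neutrophil list it was -0.37, with 5 of 8 genes below 0. A list named RNA quality held ribosomal protein genes with Actb, Gapdh and Eef1a1, whose levels are not a measure of RNA integrity. All 11 were tested, with a median difference of 0.37, 10 above 0 and 2 called higher. Their sums were 619 to 766 in Model against 742 to 1320 in Medicine, the highest on Medicine 4. The 9 red pulp macrophage markers had a median difference of -0.59, and sums of 98.1 to 123 against 50.1 to 98.4, the lowest on Medicine 4. The part of these markers in the Zfp values was not tested.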

How the data were processed

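The authors read each spot's intensity with Agilent Feature Extraction 11.0.1.1, per the submitters' processing notes, which subtracts background and leaves the arrays unnormalized. The log2 values of the deposited value table, whose scaling is not stated, served as an alternative only.

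Control and outlier spots were left out, spots of a probe were averaged, and log2 intensities, scaled to each array's 75th percentile, were fitted with limma 3.58.1 (R 4.3.3). Probes were named through RefSeq accessions. 6 arrays limit the precision. The 14474 features kept by the detection rule were tested together. The fit was tested on simulated data with independent normal noise, which held no array effect, slide effect or deviating array such as Medicine 4. It therefore cannot show how the calls fare under such effects. Promoter windows were aligned with Biopython 1.88.

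The gene lists and members were chosen with earlier results of these data known. The text names members by the largest differences without overlap, one-sided detection, signal strength, nearness to the limits, known roles and probe disagreement. The other called genes and the members of promoter sets, runs and probe groups were named after their values were seen. Alternatives were other scalings, normexp (offset 50, on median signals, since mean signals are not among the columns used), filters, probe choices, blocks for scan day and slide, array weights, the analysis of variance of the methods, the value table and leaving out each array. Protein sequences were not used here.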

Additional observations from a re-analysis of the deposited data

How the results depend on the processing

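No paired analysis was possible because the labels number the Model arrays 1 to 3 and the Medicine arrays 4 to 6, which share no number. Signal over background limits the dim members, and 3 arrays per group limit all of them.

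Beside 14 Zfp genes called higher, 15 lower, 3 called corepressor genes and 7 called genes of other zinc finger families, normexp gave 8, 4, 1 and 3, and no limit on the fold gave 22, 34, 11 and 13. The value table gave 4, 2, 1 and 1, with a Zfp median of 0.16, also 0.16 relative to all features. Median scaling gave 7, 44 and 8 corepressor genes, a Zfp median of -0.43 and 46 Zfp genes without overlap in place of 77. Quantile normalization gave 8 higher, the percentile of detected probes 9 lower, and detection on all 6 arrays 7 lower. Each probe on its own gave 7 corepressor probes. Scan day as a block gave 24 lower, 6 corepressor genes and 15 genes of other families, the slide block 11 of these and array weights 3. The methods' analysis of variance gave 7 higher, 9 lower and 4 of other families. In these cases the cause was not tested. Calls over all 14474 features moved too, from 1849 as reported to 1246 with normexp, 3158 with median scaling and 3377 without the fold limit. They were 2680 with scan day as a block, 2276 with the slide block and 1857 with array weights. The value table gave 1306 and the analysis of variance 1135. Leaving out single arrays gave 5 to 13 higher, 8 to 19 lower, 2 to 5 corepressor genes and 1 to 11 of other families. Over all features these fits gave 1228 to 2466 calls. The Zfp median then ranged from -0.18 to -0.07, and from -0.19 to -0.03 relative to all features. Of other families 1 was called without Medicine 4, 4 without Model 1 and 11 without Medicine 5, and 5 corepressor genes were called without Model 1, Medicine 5 or Medicine 6.

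Of 1232 alternative values for the 59 named Zfp genes, 1090 stayed within the replicate spread, and 91 had the other sign. Of these, 28 were in the value table and 63 elsewhere, the latter in 16 genes whose reported difference was at most 0.42 in size, none of them called. Among the 17 called genes, 6 changed sign, all in the value table: Zfp658 at -0.26, Zfp687 at -0.06, Zfp677 at 0.59, Zfp758 at 0.33, Zfp943 at 0.16 and Zfp984 at 0.43. Other called genes that turned there were Zfp871 (0.76), Zfp317 (0.22), Zfp87 (0.41) and Zfp945 (-1.10). An adjusted p under 0.05 was reached by 13 Zfp genes (5.75%, against 7.43% of all features) with the scan day as a block. Median scaling gave 17 (7.52%, against 7.56%) and normexp 3 (1.33%, against 1.45%), and 21 (9.29%, against 12.3%) passed in the value table. Array weights gave 96 (42.5%, against 39.5%). The weights were 4.93 for Model 1 and 5.72 for Medicine 6. They were 0.74 for Model 2, 0.57 for Model 3, 0.16 for Medicine 4 and 0.53 for Medicine 5. That fit thus rested mainly on Model 1 and Medicine 6, so its count cannot show how the genes differ between replicated groups.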

Other observations

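Members without a value on all 6 arrays, because a spot was called an outlier on 1 Medicine array, entered no count. Zfp534 stood at 1.59, 1.62 and 1.81 on the Model arrays and at -0.38 and -0.55 on Medicine 4 and 6. Zfp53 stood at -0.55, -0.05 and -0.47 on the Model arrays and at 2.40 and 1.01 on Medicine 4 and 6. For both genes the measured Medicine arrays lay on one side of all Model arrays. Zfp936 stood at 1.77, 1.64 and -0.18 against 1.13 and 0.34, and Zfp160 at -0.15, -0.44 and -0.11 against -1.24 and -0.58, the latter on Medicine 4 and 5.

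Of the listed genes that were not kept, Zfp36, whose CCCH protein tristetraprolin speeds the decay of cytokine mRNA, stood at -4.25, -1.93 and -3.42 on the Model arrays and -3.66, -1.70 and -3.45 on the Medicine arrays. It was well above background on 2 Model arrays and 1 Medicine array. Zfp42, the pluripotency gene also called Rex1, was well above background on 0 arrays.

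Zfp352 and Zfp28 had large differences that were not called. Zfp352 stood at -2.45, 1.00 and -2.30 on the Model arrays and 2.27, 0.59 and -0.92 on the Medicine arrays, a difference of 1.90 (SE 1.1), and Zfp28 differed by 1.11 (SE 0.77). In Zfp763, Zfp110 and Zfp275, differences of -1.60, -1.29 and -1.21 went with Medicine 4 levels of -4.65, -3.79 and -4.21, at which the probe was not well above background.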
